A study of Homo sapiens with 6 samples.

Results

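The regions described here are 988 GABPA binding peaks that were listed near exactly 1 gene in control A-375 cells and were listed again after loss of the GABP B1 subunit. A-375 is an established human melanoma cell line. ChIP-seq with a GABPA antibody was made from 3 conditions. The tested cells carried a knockout of exon 2 of the gene for the B1 subunit (GABPB1) and a TERT knock-in, which supplies the enzyme part of telomerase. The controls were ROSA26 knockout cells, edited at a site often chosen as neutral, and parental cells with no knockout. Each condition had 1 ChIP library and 1 input library, 6 samples in all, and the 3 ChIP peak lists were analysed. Edited cells were isolated as clones by sorting, per the labels' protocols, so each knockout library is 1 clone, and knockout, knock-in and clone cannot be told apart.

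A kept peak is a parental peak overlapped by at least 1 bp by a ROSA26 peak and by a B1 knockout peak, whose parental summit lay within 1 kb of an end of exactly 1 protein-coding gene on chromosomes 1 to 22 and X. The parental list held 3024 peaks, of which 2969 had a ROSA26 peak, and 1747 of those lay near exactly 1 gene. Among the 1747, 988 had a knockout peak (the kept peaks) and 759 had none (the missing peaks). The share kept was 56.6% (95% interval 54.2 to 58.9), against 54.8% of all 2969 peaks shared by the controls. The share depends on the length of the lists, and was 87.7% (85.4 to 89.7) when each list was reduced to its strongest 1660 peaks by −log10 p. Presence in the 3 lists chose the members, so nothing is read from that share. The 988 peaks marked 988 different genes, 4.95% of the 19970 genes considered, and made up 59.5% of the 1660 knockout peaks. Every interval covers counting error over peaks only, and 1 library per condition allows no replicate check.

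The GABP complex pairs GABPA, which binds DNA through its ETS domain, with a B subunit that brings the activation domain. ETS proteins recognise a GGAA core, and GABPA favours a core with CC before it. Some forms of the B1 subunit let a pair of GABPA and B units join, so that 1 complex can contact neighbouring ETS motifs. GABP is known as a regulator of housekeeping genes, among them genes of mitochondria, the ribosome and the cell cycle.

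The promoters of 12 kept genes are printed first, as examples of strong peaks, of peaks ordered differently in the lists and of promoters rich in ETS motifs. They are RefSeq sequences of GRCh38.p14, 250 bases before and 50 bases after the gene start, each 5′ to 3′ on the strand of the gene. Capitals mark CGGAAG, the ETS core motif, or its reverse complement CTTCCG. The first 3 belong to the strongest parental peaks, the next 3 to peaks that stood lower in order in the knockout list than in both controls, and the next 3 to peaks that stood higher. The last 3 hold the most ETS motifs, 7 at TPRKB, 6 at ING4 and 5 at NR1H2. NR1H2 is tied with CD2BP2 and with a kept promoter that is not printed.
MRPS31 (chr13:40771141-40771440, minus strand): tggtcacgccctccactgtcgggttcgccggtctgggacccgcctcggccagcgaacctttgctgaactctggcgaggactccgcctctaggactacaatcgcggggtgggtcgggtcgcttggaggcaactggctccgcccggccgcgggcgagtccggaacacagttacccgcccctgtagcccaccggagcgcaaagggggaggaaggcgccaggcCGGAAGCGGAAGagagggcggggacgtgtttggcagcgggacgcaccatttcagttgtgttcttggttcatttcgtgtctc
AURKAIP1 (chr1:1375158-1375457, minus strand): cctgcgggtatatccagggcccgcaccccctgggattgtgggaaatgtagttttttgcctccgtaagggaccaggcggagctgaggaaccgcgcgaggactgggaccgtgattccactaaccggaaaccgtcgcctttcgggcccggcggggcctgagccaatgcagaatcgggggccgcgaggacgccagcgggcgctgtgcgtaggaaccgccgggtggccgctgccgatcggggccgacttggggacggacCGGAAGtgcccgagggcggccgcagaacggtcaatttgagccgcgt
SF3A3 (chr1:37989973-37990272, minus strand): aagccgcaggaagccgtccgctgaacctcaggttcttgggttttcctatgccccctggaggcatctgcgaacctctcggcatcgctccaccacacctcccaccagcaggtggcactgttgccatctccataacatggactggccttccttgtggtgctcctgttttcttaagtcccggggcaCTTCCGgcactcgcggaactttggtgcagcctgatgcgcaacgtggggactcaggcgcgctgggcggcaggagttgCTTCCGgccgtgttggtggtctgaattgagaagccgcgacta
ZIK1 (chr19:57583895-57584194, plus strand): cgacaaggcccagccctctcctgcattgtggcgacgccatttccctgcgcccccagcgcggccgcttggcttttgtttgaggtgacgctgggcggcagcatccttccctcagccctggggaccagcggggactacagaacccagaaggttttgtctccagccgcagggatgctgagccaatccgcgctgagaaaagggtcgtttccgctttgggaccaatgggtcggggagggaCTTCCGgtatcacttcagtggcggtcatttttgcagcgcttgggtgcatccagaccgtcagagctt
SLC38A10 (chr17:81295258-81295557, minus strand): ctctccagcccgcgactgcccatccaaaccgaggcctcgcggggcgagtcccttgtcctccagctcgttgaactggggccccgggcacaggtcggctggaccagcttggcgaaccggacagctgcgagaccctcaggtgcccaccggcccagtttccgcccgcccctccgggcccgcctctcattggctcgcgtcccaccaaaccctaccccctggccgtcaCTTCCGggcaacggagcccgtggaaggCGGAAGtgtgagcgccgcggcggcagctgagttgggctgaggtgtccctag
CD2BP2 (chr16:30355259-30355558, minus strand): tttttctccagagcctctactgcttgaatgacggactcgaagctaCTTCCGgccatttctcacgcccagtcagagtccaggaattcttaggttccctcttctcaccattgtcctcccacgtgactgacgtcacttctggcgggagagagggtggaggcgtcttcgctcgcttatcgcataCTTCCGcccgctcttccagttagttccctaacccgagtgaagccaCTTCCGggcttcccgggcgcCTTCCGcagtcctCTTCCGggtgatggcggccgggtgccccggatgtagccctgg
PDCD6IP (chr3:33798380-33798679, plus strand): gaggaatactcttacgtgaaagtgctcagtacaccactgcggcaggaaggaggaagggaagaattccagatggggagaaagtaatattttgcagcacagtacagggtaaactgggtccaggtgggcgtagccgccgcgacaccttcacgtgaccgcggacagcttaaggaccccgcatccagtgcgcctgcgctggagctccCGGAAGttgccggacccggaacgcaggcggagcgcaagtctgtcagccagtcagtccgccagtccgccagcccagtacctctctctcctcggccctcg
NSFL1C (chr20:1466800-1467099, minus strand): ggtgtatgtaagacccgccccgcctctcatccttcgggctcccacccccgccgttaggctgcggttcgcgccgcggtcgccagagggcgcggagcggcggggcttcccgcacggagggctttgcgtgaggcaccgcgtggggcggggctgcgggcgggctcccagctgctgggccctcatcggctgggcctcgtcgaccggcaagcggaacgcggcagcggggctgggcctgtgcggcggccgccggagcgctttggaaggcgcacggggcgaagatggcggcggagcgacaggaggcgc
MCTS2 (chr20:31547129-31547428, plus strand): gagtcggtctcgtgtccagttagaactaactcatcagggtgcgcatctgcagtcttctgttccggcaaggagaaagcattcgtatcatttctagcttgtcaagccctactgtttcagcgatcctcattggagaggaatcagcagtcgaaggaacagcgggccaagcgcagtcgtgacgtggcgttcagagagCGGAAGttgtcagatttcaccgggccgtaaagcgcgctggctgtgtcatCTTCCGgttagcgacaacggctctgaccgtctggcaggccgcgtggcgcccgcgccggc
TPRKB (chr2:73737296-73737595, minus strand): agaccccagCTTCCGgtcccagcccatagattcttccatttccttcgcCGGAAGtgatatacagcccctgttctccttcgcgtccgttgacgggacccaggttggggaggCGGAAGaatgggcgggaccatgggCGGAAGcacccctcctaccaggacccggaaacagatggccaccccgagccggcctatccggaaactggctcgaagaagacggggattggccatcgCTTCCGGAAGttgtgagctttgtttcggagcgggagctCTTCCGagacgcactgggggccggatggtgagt
ING4 (chr12:6663070-6663369, minus strand): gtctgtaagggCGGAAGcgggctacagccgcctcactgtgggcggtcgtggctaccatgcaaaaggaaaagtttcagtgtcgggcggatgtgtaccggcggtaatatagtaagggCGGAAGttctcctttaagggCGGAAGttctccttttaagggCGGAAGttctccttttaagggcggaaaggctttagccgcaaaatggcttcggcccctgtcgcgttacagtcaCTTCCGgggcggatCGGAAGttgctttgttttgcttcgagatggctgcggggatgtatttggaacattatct
NR1H2 (chr19:50376207-50376506, plus strand): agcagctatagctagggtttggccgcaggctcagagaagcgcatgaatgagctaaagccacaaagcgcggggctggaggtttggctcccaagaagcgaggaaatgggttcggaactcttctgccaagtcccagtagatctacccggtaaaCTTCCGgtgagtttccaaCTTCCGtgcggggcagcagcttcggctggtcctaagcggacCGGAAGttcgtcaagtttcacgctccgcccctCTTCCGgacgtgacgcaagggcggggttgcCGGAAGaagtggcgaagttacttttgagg

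MRPS31, a protein of the mitochondrial ribosome, had 2 adjoining CGGAAG copies starting at positions -31 and -25 from the start, with its parental summit at -11. SLC38A10, an amino acid transporter gene, had opposed copies starting at -28 and -1, with its summit at -25 inside the first of them. TPRKB, a partner in the complex that makes a tRNA modification, had 7 copies, of which those at -21 and -17 overlap in a palindrome. ING4, a chromatin reader, had 6 copies, 3 of them in a repeat between -135 and -94. NSFL1C, a cofactor of the p97 ATPase, had no copy of CGGAAG in its window although its summit lay there at -91.

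The strongest kept peaks had high values in each list. The fold enrichment, deposited by the authors and used here only to describe and order peaks, is the pileup at the summit over the local background. It was 16.8 in the B1 knockout, 22.7 in the ROSA26 and 23.6 in the parental list at MRPS31 (chromosome 13, summit 40771201). At BRF2, an RNA polymerase III initiation factor (chromosome 8, summit 37849933), the folds were 21.4 in the knockout, 21.3 in the ROSA26 and 23.6 in the parental list. At AURKAIP1, a mitochondrial ribosomal protein (chromosome 1, summit 1375386), they were 15.9 in the knockout, 23.1 in the ROSA26 and 23.01 in the parental list. These 3 peaks were among the first 22 of the 988 in each list. SF3A3, a splicing factor of the U2 particle (chromosome 1, summit 37990075), had folds of 14.4 in the knockout, 17.6 in the ROSA26 and 22.5 in the parental list. TSSC4, an assembly factor of a splicing particle (chromosome 11, summit 2400357), had 16.9 in the knockout, 25.5 in the ROSA26 and 20.8 in the parental list. The SF3A3 summit lay 53 bp before the gene start and that of TSSC4 393 bp before it.

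The weakest kept peaks were found again at low fold. DMAC2, an assembly factor of respiratory complex I, had folds of 3.73 in the knockout, 5.90 in the ROSA26 and 2.72 in the parental list, the lowest parental fold of the 988. WRAP53, which guides telomerase to Cajal bodies, had 2.90 in the knockout, 4.74 in the ROSA26 and 3.20 in the parental list. The ribosomal protein gene RPL38 had 3.58 in the knockout, 6.78 in the ROSA26 and 3.38 in the parental list. PDCD7, of the minor spliceosome, had 2.78 in the knockout, 5.25 in the ROSA26 and 3.41 in the parental list. These genes held 0 to 3 CGGAAG copies where a promoter sequence was matched, so a weak peak did not always mean a promoter without the motif.

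Across all 988 kept peaks the median fold was 5.95 in the knockout list (range 2.55 to 23.5), 10.5 in the ROSA26 list (4.07 to 26.0) and 9.06 in the parental list (2.72 to 23.6). Folds of different lists are given side by side, and no change is read from them. The reads at the summit, solved from fold and −log10 p, had medians of 85 in the knockout, 221 in the ROSA26 and 191 in the parental library. The local background under the same peaks had medians of 13.0 reads in the knockout, 20.2 in the ROSA26 and 19.8 in the parental library and both read measures were lowest in the knockout library, and the part of depth in these values was not tested. The 10th percentile was 49 reads in the knockout, 135 in the ROSA26 and 116 in the parental library. Of the kept peaks 51.4% were in the stronger 50% of the knockout list by fold. In the parental list 83.3% of them were in the stronger 50%. Both shares depend on the choice by presence and on the list lengths, 1660 knockout and 3024 parental peaks. No change is read from them. The missing peaks, described with no test because presence chose them, had a median parental fold of 4.31 and a median of 91 reads. Kept peaks between neighbouring genes had a median parental fold of 9.67 (434 peaks) and kept peaks away from gene ends 8.49 (206 peaks), on both sides of 9.06.

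**Figure D1:**
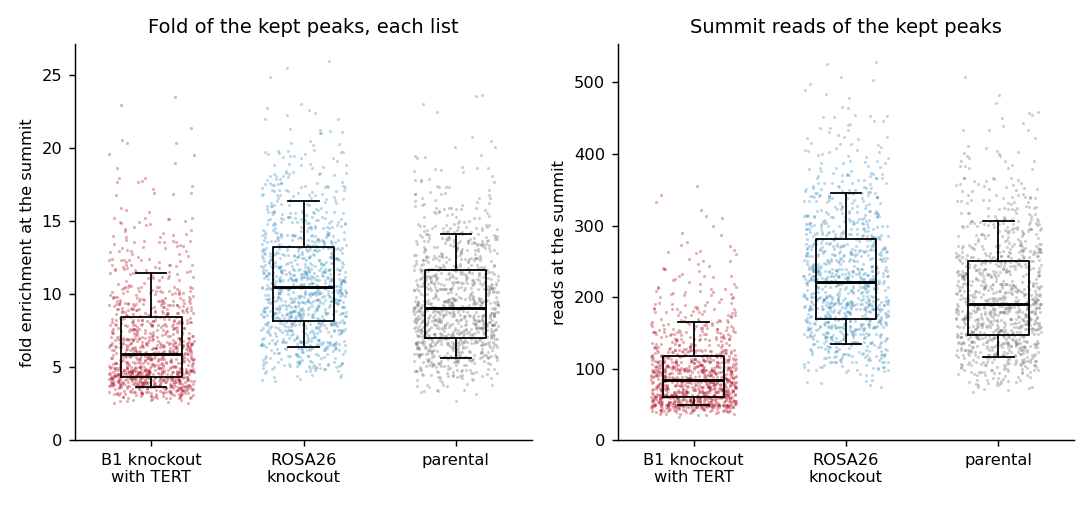
Fold enrichment (left, authors' values) and reads at the summit (right) of the 988 kept peaks in the B1 knockout with TERT, ROSA26 knockout and parental lists. Each point is 1 peak, boxes show the quartiles with the median as a thick line (fold 5.95, 10.5 and 9.06) and whiskers the 10th and 90th percentiles.

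The kept peaks sat at gene starts. The rule counts either end of a gene, so the strand was taken from the RefSeq promoters, which matched 845 of the 988 genes. None of the 27 missing peaks on chromosome 8 had a matched promoter, nor did the kept genes named here on that chromosome. Start positions and motif shares leave these peaks out. The nearest gene end was the start for 836 of the 845 (98.9%, 98.0 to 99.5) and the far end for 9. Summits lay within 200 bp of the start in 84.7% (82.1 to 87.1) and within 50 bp in 49.9% (46.5 to 53.4). They lay before the start in 82.5% (79.8 to 85.0), with a median position of -40 bp and quartiles of -85 and -13 bp. Among the 637 missing peaks with a matched promoter, 98.0% (96.5 to 98.9) were nearest the start, 73.9% (70.3 to 77.3) lay within 200 bp of it and 34.9% (31.1 to 38.7) within 50 bp. The position of the summit was not part of the choice beyond 1 kb, and the intervals of kept and missing peaks do not overlap within 50 or 200 bp. Kept peaks also had more reads, and the part of that in the positions was not tested. The median position of the missing peaks was -53 bp, with quartiles of -142 and 0 bp.

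The peaks returned at nearly the same place in the knockout. The knockout summit lay a median of 18.5 bp from the parental summit (interval of the median 17 to 20), and within 50 bp in 87.4% (85.1 to 89.4). The ROSA26 summit of the same peaks lay a median of 15 bp from the parental summit, and within 50 bp in 93.5% (91.8 to 94.98). The largest distance was 272 bp in the knockout and 141 bp in ROSA26. Peaks of the knockout list were narrower than those of both controls at 953 of the 988. The median widths were 515 bp in the knockout, 763 bp in the ROSA26 and 662 bp in the parental list. The same peaks had the fewest reads in the knockout library, and the part of that in the widths was not tested.

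**Figure D2:**
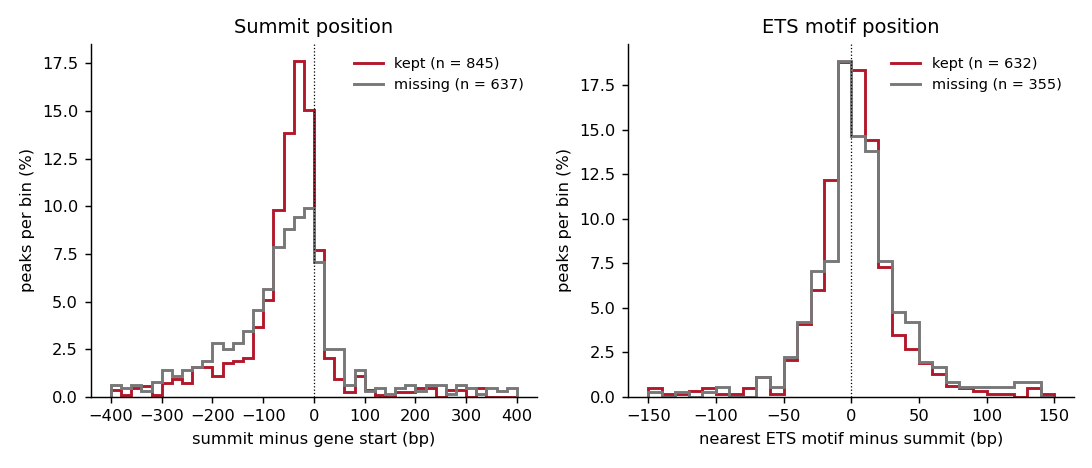
Left, position of the parental summit relative to the gene start, in 20 bp bins, for kept (845) and missing (637) peaks. Right, position of the nearest CGGAAG relative to the summit, in 10 bp bins, for kept (632) and missing (355) peaks with the summit and the motif inside the promoter window, and both groups peak at the summit itself.

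ETS motifs were common in the kept promoters and lay under the summits. CGGAAG on either strand was found in 676 of 845 kept promoters (80.0%, 77.1 to 82.6), in 400 of 637 missing promoters (62.8%, 58.9 to 66.6) and in 25.6% of all 15811 promoters (24.9 to 26.2). Sequence was not used to choose the peaks. The longer motif CCGGAAG, which contains the shorter one, was found in 63.8% of kept (60.4 to 67.0), 43.5% of missing (39.6 to 47.4) and 14.2% of all promoters (13.6 to 14.7). CCGGAAGT, longer by 1 base, was found in 38.8% of kept (35.5 to 42.2), 18.7% of missing (15.7 to 21.9) and 6.19% of all promoters (5.82 to 6.58). For each motif the 3 intervals lie apart.

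The number of copies differed as well. At least 2 CGGAAG copies were found in 365 kept promoters (43.2%, 39.8 to 46.6), 145 missing promoters (22.8%, 19.6 to 26.2) and 7.30% of all promoters (6.90 to 7.72). Of the kept promoters 90 had 3 copies and 27 had 4 or more, with a maximum of 7 at TPRKB. Of the missing promoters 22 had 3 and 3 had 4, the maximum. In promoters with at least 2 copies the closest copies started a median of 31 bp apart in kept, 47 bp in missing and 39 bp in all promoters. They started within 30 bp of each other in 48.8% of kept (43.5 to 54.0), 35.2% of missing (27.4 to 43.5) and 41.7% of all such promoters (38.8 to 44.6), with touching or overlapping intervals. Copies of the closest pair lay on the same strand in 54.8% of kept (49.5 to 60.0) and 53.8% of missing promoters (45.3 to 62.1).

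The motif and the summit fell together. Of the 724 kept promoters whose summit lay inside the promoter window, 632 held CGGAAG (87.3%, 84.6 to 89.6), and in 452 a copy lay within 25 bp of the parental summit (62.4%, 58.8 to 66.0). Of 468 such missing promoters 75.9% held the motif (71.7 to 79.7), and 48.3% had a copy within 25 bp (43.7 to 52.9). At least 2 copies were found in 43.2% of all kept and 22.8% of all missing promoters. The part of copy number in the shares within 25 bp was not tested. In the 632 kept promoters the nearest copy lay a median of 15.5 bp from the knockout summit (13.5 to 17.5), 14.5 bp from the ROSA26 summit (13.5 to 15.5) and 13.5 bp from the parental summit (12.5 to 15.5). The 3 intervals overlap. Of all 1193 copies in kept promoters, 47.2% lay in the 50 bases before the start, against 34.0% of the 573 copies in missing and 32.2% of the 5564 copies in all promoters. Copies read in the direction of the gene made up 53.6% (50.8 to 56.5) in kept and 51.1% (47.0 to 55.3) in missing promoters. Of the 169 kept promoters without CGGAAG, 77 had the summit outside the window, and 92 had it inside.

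Peak strength moved with both the motif and being kept, so the promoters were set side by side in 4 equal bins of parental fold of the 1747 peaks. The share of peaks kept was 6.86% in the weakest bin (fold 2.05 to 4.47), 41.1% in the next (to 6.71), 80.8% in the third (to 9.58) and 97.5% in the strongest. Within bins the difference in CGGAAG was smaller than over all peaks. It was found in 73.9% of kept (51.6 to 89.8) and 59.0% of missing promoters (53.6 to 64.2) in the weakest bin, and in 68.8% (60.9 to 76.0) and 66.2% (59.4 to 72.5) in the second. In the third bin the shares were 78.1% of kept (73.1 to 82.7) and 69.9% of missing promoters (58.0 to 80.1). In the strongest bin they were 86.6% of 366 kept (82.7 to 89.9) and 4 of 5 missing promoters. The intervals overlap in each bin. CCGGAAGT was found in 8.70% of kept (1.07 to 28.04) and 14.7% of missing promoters (11.2 to 18.9) in the weakest bin, where the kept share was the lower. It was found in 32.5% of kept (25.2 to 40.5) and 24.4% of missing promoters (18.8 to 30.8) in the second bin, and in 34.4% of kept (29.1 to 40.1) and 20.5% of missing promoters (11.98 to 31.6) in the third. In the strongest bin it was found in 47.0% of kept (41.8 to 52.3) and 1 of 5 missing promoters, and the intervals overlap in each bin. At least 2 CGGAAG copies were found in 17.4% of kept and 18.8% of missing promoters in the weakest bin and in 36.8% of kept and 38.4% of missing promoters in the third. In the other 2 bins the kept share was the higher, 27.3% of kept and 23.5% of missing promoters in the second and 56.8% of kept and 2 of 5 missing promoters in the strongest.

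**Figure D3:**
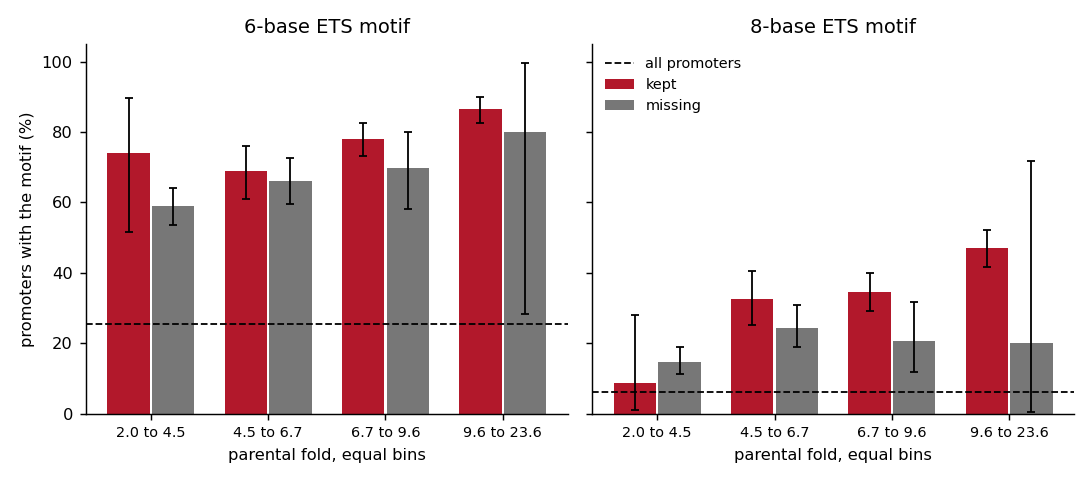
Share of promoters with the ETS motif of 6 bases (left) and of 8 bases (right) at kept and missing peaks, in 4 equal bins of parental fold. Bars show the share, error bars exact 95% intervals over promoters and the dashed line the share in all promoters (25.6% and 6.19%), and within each bin the intervals of kept and missing peaks overlap.

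Among the kept peaks themselves, promoters with more copies carried stronger peaks in each list. With no CGGAAG the 169 peaks had a median fold of 4.89 in the knockout, 8.94 in the ROSA26 and 7.74 in the parental list. With 1 copy (311 peaks) the medians were 5.58 in the knockout, 9.92 in the ROSA26 and 8.55 in the parental list. With 2 copies (248) they were 6.16, 11.1 and 9.73, and with 3 or more (117) they were 6.64, 12.9 and 10.98, in the same order of lists. The quartiles of neighbouring classes overlap in each list, for example 4.01 to 7.78 with no copy and 4.27 to 8.21 with 1 copy in the knockout list.

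Motifs of other factors did not set kept promoters apart in the same way. The NRF1 motif was found in 9.11% of kept (7.26 to 11.3), 12.6% of missing (10.1 to 15.4) and 8.58% of all promoters (8.15 to 9.03). The CCAAT box of NFY was found in 36.2% of kept (33.0 to 39.6), 43.5% of missing (39.6 to 47.4) and 36.3% of all promoters (35.6 to 37.1), so its share was lower at kept than at missing peaks, with intervals that meet at 39.6 without overlapping. GGGCGG, bound by SP factors, was found in 65.3% of kept, 69.2% of missing and 58.5% of all promoters. The ZNF143 motif was found in 6.51% of kept (4.94 to 8.39), 8.16% of missing (6.16 to 10.6) and 3.06% of all promoters (2.80 to 3.34). The YY1 motif was found in 4.26% of kept (3.00 to 5.85), 3.61% of missing and 2.64% of all promoters (2.39 to 2.90). The CREB motif TGACGTCA was found in 4.62% of kept (3.30 to 6.26), 2.98% of missing (1.81 to 4.62) and 2.59% of all promoters (2.35 to 2.85). TATAAA was found in 4.38% of kept (3.10 to 5.98), 4.08% of missing and 9.64% of all promoters (9.18 to 10.1). All were searched on both strands. The median GC content was 62.0% in kept, 63.3% in missing and 62.7% in all promoters. The ratio of observed to expected CpG had medians of 0.854 in kept, 0.866 in missing and 0.763 in all promoters.

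The order of the kept peaks was looser between the knockout and the controls than between the controls. Each peak was ranked by fold among the 988 within each list, which gives the lists equal length. Spearman's rho across the 988 peaks, a description with no test, was 0.732 for knockout against ROSA26, 0.724 for knockout against parental and 0.846 for ROSA26 against parental. The median shift was 124 places for knockout against ROSA26, 130 for knockout against parental and 94.8 for ROSA26 against parental. Shifts of more than 400 places were seen for 66, 69 and 21 peaks in the same order of pairs. The strongest 247 peaks of the knockout list shared 159 with those of ROSA26 and 160 with those of the parental list, and the controls shared 182. Reads at these summits were fewest in the knockout library, and the part of that in the shifts was not tested.

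The 5 peaks that stood lower in the knockout than in both controls by the most places were at ZIK1, GDAP1, SLC38A10, AP1M1 and CD2BP2. ZIK1, a zinc finger gene (chromosome 19, summit 57584076), had folds of 3.54 in the knockout, 14.6 in the ROSA26 and 12.6 in the parental list, and ranks of 906 in the knockout, 167 in the ROSA26 and 183 in the parental list. GDAP1, a gene of mitochondrial fission (chromosome 8, summit 74350392), had folds of 4.30 in the knockout, 18.9 in the ROSA26 and 15.4 in the parental list. SLC38A10 (chromosome 17, summit 81295332) had folds of 4.03 in the knockout, 13.6 in the ROSA26 and 13.0 in the parental list. AP1M1, a clathrin adaptor subunit (chromosome 19, summit 16197831), had 3.53 in the knockout, 12.2 in the ROSA26 and 11.1 in the parental list. CD2BP2, a splicing protein (chromosome 16, summit 30355348), had 5.13 in the knockout, 18.3 in the ROSA26 and 16.6 in the parental list, with 5 CGGAAG copies in its promoter. Its summit held 80 reads in the knockout, 387 in the ROSA26 and 366 in the parental library. All 5 were in the stronger 324 of the 988 in both controls.

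The 5 peaks that stood higher in the knockout by the most places were at PDCD6IP, NSFL1C, MCTS2, TUT7 and CCDC97. PDCD6IP, a partner of endosomal sorting proteins (chromosome 3, summit 33798594), had folds of 8.69 in the knockout, 5.36 in the ROSA26 and 5.70 in the parental list. Its ranks were 229.5 in the knockout, 946 in the ROSA26 and 884 in the parental list, and its summit held 94 reads in the knockout, 83 in the ROSA26 and 122 in the parental library. NSFL1C (chromosome 20, summit 1466940) had folds of 8.18 in the knockout, 5.12 in the ROSA26 and 5.60 in the parental list. MCTS2, a copy of a translation factor gene (chromosome 20, summit 31547363), had 8.28 in the knockout, 8.09 in the ROSA26 and 5.81 in the parental list. TUT7, an enzyme that adds uridines to RNA (chromosome 9, summit 86354489), had 7.83 in the knockout, 6.72 in the ROSA26 and 6.70 in the parental list. CCDC97 (chromosome 19, summit 41310358) had 7.09 in the knockout, 7.49 in the ROSA26 and 6.61 in the parental list. All 10 peaks were picked as the extremes of 988, so their shifts are a description and not a finding about these genes.

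**Figure D4:**
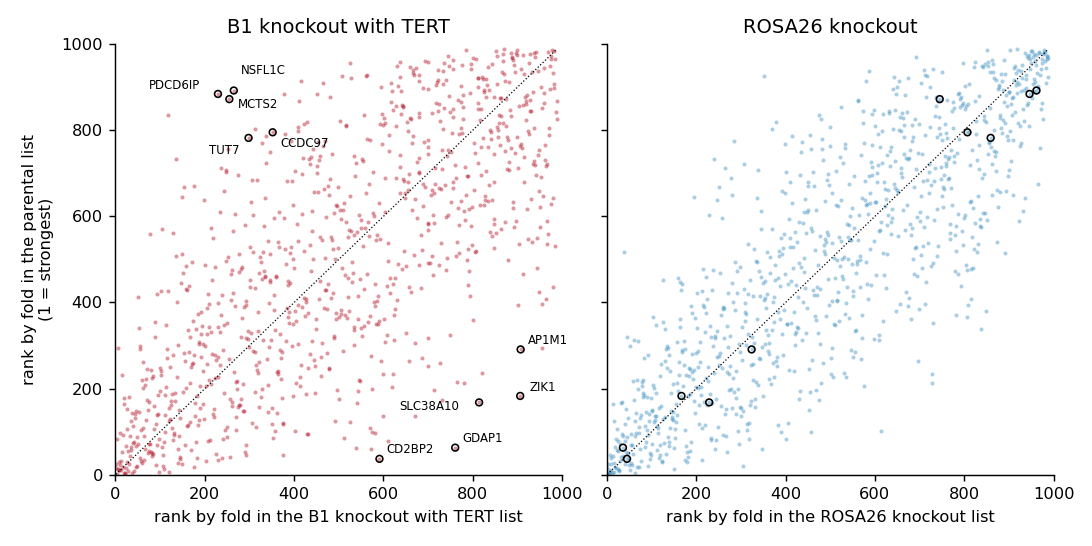
Rank by fold of the 988 kept peaks in the parental list (vertical axis, 1 is strongest) against the rank in the B1 knockout list (left) and in the ROSA26 list (right). Open circles mark the 10 genes with the most places lower or higher in the knockout list than in both controls, the dotted line equal ranks, and the spread is wider on the left (rho 0.724) than on the right (0.846).

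The genes at the kept peaks were grouped by name families, and the counts are set against the 56.6% kept over all single-gene peaks of the full lists (87.7% with lists of equal length). A gene with both a kept and a missing single-gene peak is counted as kept only. No family was tested. Among genes of translation, 26 of 83 cytosolic ribosomal protein genes had a kept peak and 15 a missing one (63.4% kept, 46.9 to 77.9). RPS7 had folds of 14.1 in the knockout, 22.3 in the ROSA26 and 20.1 in the parental list, the highest parental value of the family. RPL37 had 15.2 in the knockout, 14.4 in the ROSA26 and 17.3 in the parental list, and RPL38 was its weakest member. Initiation factor genes, named EIF, had 6 kept and 6 missing peaks among 55 genes. EIF3M had folds of 13.6 in the knockout, 11.1 in the ROSA26 and 9.69 in the parental list. EIF4EBP2, a repressor of initiation that matched by its name, had 3.85, 8.48 and 5.74 in the same order. Of 34 genes for aminoacyl-tRNA synthetases, 5 had a kept and 5 a missing peak. CARS1, which charges the cysteine tRNA, had folds of 10.1 in the knockout, 19.4 in the ROSA26 and 16.3 in the parental list.

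Mitochondrial families held kept peaks at varying numbers. Of 77 mitochondrial ribosomal protein genes, 13 had a kept and 4 a missing single-gene peak (76.5% kept, 50.1 to 93.2), and 12 of the 13 kept promoters held CGGAAG. MRPL16 had folds of 18.0 in the knockout, 17.4 in the ROSA26 and 14.2 in the parental list, and MRPS21, the weakest of the family, had 3.18, 6.56 and 5.48 in that order. Carrier genes had 2 kept and 5 missing peaks among 48 (28.6% kept, 3.67 to 71.0), and CHCHD genes, which encode proteins with paired cysteines, 1 kept and 2 missing peaks among 8. Import genes had 6 kept and 3 missing peaks among 28. TIMMDC1, an assembly factor of complex I, had folds of 9.77 in the knockout, 17.9 in the ROSA26 and 15.0 in the parental list. Among genes of cytochrome c oxidase and its assembly 7 had a kept and 4 a missing peak, and 1 of those 4, COASY, matched by its name only and is an enzyme of coenzyme A synthesis. COA6, a copper delivery factor, had folds of 12.4 in the knockout, 16.2 in the ROSA26 and 13.3 in the parental list. Complex I genes, matched by name, had 3 kept and 3 missing peaks among 46. The median folds of the kept were 4.40 in the knockout, 5.77 in the ROSA26 and 4.84 in the parental list. The assembly factors DMAC2 and TIMMDC1 also had kept peaks but were not counted in this family. NDUFB7 stood above the others, with 8.93 in the knockout, 10.01 in the ROSA26 and 8.35 in the parental list, and it alone of the 3 held CGGAAG, NDUFS7 and NDUFS8 having none.

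Genes of RNA processing and transcription made up further families. Of 53 DEAD and DEAH box helicase genes, which remodel RNA, 15 had a kept peak and 1, DHX34, a missing one (93.8% kept, 69.8 to 99.8). The median parental fold of the kept was 8.87, in the third bin, where 80.8% of all single-gene peaks were kept. DDX55 had folds of 18.7 in the knockout, 18.2 in the ROSA26 and 17.8 in the parental list. DDX21 had 5.00 in the knockout, 18.9 in the ROSA26 and 14.7 in the parental list, which put it at rank 609.5 in the knockout, against 39.5 in the ROSA26 and 78 in the parental list. DHX33 was the weakest, with 3.65 in the knockout, 4.07 in the ROSA26 and 4.31 in the parental list. Spliceosome genes had 13 kept and 7 missing peaks among 61 (65.0% kept, 40.8 to 84.6). After SF3A3, SF3B2 followed with 7.89 in the knockout, 13.0 in the ROSA26 and 15.9 in the parental list. RNA polymerase subunit genes had 6 kept peaks and 1 missing, at POLR2G. POLR3A and POLR3B, the large subunits of RNA polymerase III, had folds of 3.52 and 3.12 in the knockout, 4.98 and 4.47 in the ROSA26, and 6.90 and 4.75 in the parental list. Mediator genes had 7 kept and 3 missing peaks among 30, with MED23 at 11.3 in the knockout, 20.3 in the ROSA26 and 15.3 in the parental list. DHX34 and POLR2G are named because the counts were small, after their values were seen, with parental folds of 4.01 and 6.02.

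Zinc finger genes formed the largest family. Of 517 genes named ZNF, 81 had a kept and 81 only a missing single-gene peak (50% kept, 42.1 to 57.9), and 60 of the 70 kept promoters with a sequence held CGGAAG. The median folds of the 81 were 5.76 in the knockout, 10.2 in the ROSA26 and 9.26 in the parental list, close to those of all kept peaks. ZNF384 had folds of 10.5 in the knockout, 20.5 in the ROSA26 and 20.5 in the parental list, and its promoter held 3 copies, each in the longest form of the motif. ZNF410 had 5.30 in the knockout, 17.3 in the ROSA26 and 15.6 in the parental list. ZNF580, the weakest, which also had a missing peak, had 3.82 in the knockout, 5.43 in the ROSA26 and 4.17 in the parental list.

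Genes of protein turnover, membrane traffic and the nuclear pore were kept in differing shares. Proteasome genes had 13 kept and 7 missing peaks among 50 (65.0%, 40.8 to 84.6). PSMG3, an assembly chaperone, had folds of 11.7 in the knockout, 18.1 in the ROSA26 and 15.0 in the parental list. All 9 single-gene peaks at the 74 genes whose names begin with RAB and a digit were kept (66.4 to 100%), RAB11A of recycling endosomes with folds of 9.57 in the knockout, 18.3 in the ROSA26 and 10.8 in the parental list. The kept RAB peaks were not strong, with median folds of 4.88 in the knockout, 6.28 in the ROSA26 and 5.74 in the parental list. That parental value lies in the second bin, where 41.1% of all single-gene peaks were kept. Of these genes 1, RAB3GAP2, encodes a regulator and not a GTPase. All 6 at the 23 genes named NUP, for nuclear pore proteins, were kept (54.1 to 100%). The median parental fold of the 6 was 7.63, in the third bin, where 80.8% of all single-gene peaks were kept. NUP107 had folds of 14.9 in the knockout, 17.5 in the ROSA26 and 14.4 in the parental list, and NUP214 had 2.93, 9.70 and 7.95 in that order. Of 76 USP deubiquitinase genes 1, USP16, had a kept peak and 6 a missing one (14.3% kept, 0.361 to 57.9). That interval holds the 56.6% kept over all single-gene peaks. The missing peaks at USP42 and USP4 had parental folds of 3.98 and 4.02, in the weakest bin, where 6.86% of all single-gene peaks were kept. Those at USP38, USP33 and USP11, with 5.02, 5.86 and 6.59, lay in the next bin, where 41.1% were kept. USP5, with 7.98, lay in a bin where 80.8% were kept. The folds at USP16 were 3.35 in the knockout, 9.79 in the ROSA26 and 6.11 in the parental list.

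Replication, repair and tissue-restricted families are set against the 4.95% of all genes considered that had a kept single-gene peak. Of 38 replication factor genes 1 had a kept single-gene peak (2.63%, 0.0666 to 13.8), against 4.95% of all genes considered. Another 4 of them had a kept peak between neighbouring genes and 2 a missing one. Of 8 single-gene peaks at replication factor genes 1 was kept (12.5%, 0.316 to 52.7), at RFC2, a clamp loader subunit, with folds of 9.79 in the knockout, 13.99 in the ROSA26 and 11.2 in the parental list and 3 CGGAAG copies. The 7 missing peaks of that family had parental folds of 3.57 to 6.35, in the 2 weaker bins, where 6.86% and 41.1% of all single-gene peaks were kept. Of genes of the Fanconi, RAD, ERCC and XRCC names 8 had a kept and 5 a missing peak, FANCM among the kept with 10.4 in the knockout, 15.2 in the ROSA26 and 13.95 in the parental list and no CGGAAG copy. None of 392 olfactory receptor genes (0%, 0 to 0.937) and none of 40 HOX genes (0%, 0 to 8.81) had a single-gene peak in both controls. The interval of the HOX genes holds 4.95%. Of 152 keratin and keratin-associated genes 1, KRT10, had a kept peak (0.658%, 0.0167 to 3.61). None of 10 melanocyte lineage genes, such as MITF and TYR, and none of 8 genes of other skin cells had a kept peak. With so few genes, none is a usual count at a share of 4.95%, and nothing is read from it. Peak lists do not measure expression, so the labelled cell type was not checked by them.

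**Figure D5:**
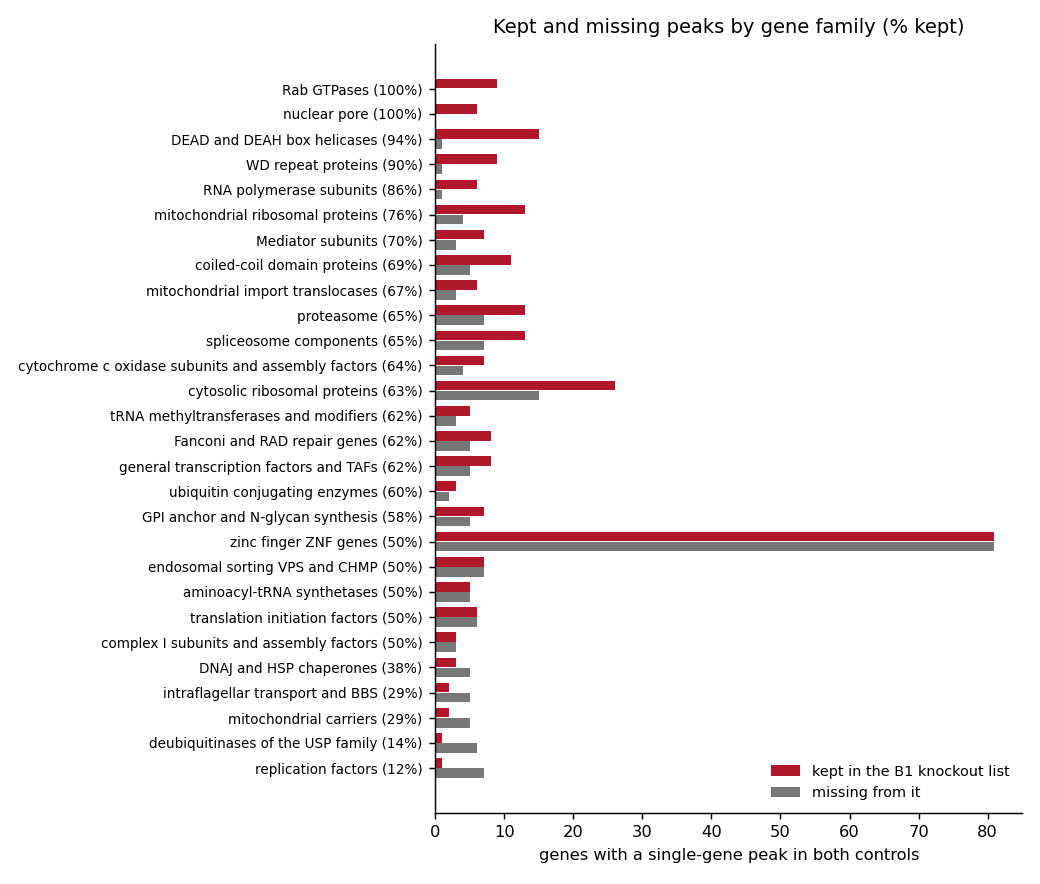
Number of genes with a kept and with only a missing single-gene peak in each name family with at least 5 such genes, with the share kept in parentheses. Families run from all kept (RAB and NUP names, 9 and 6 genes) to 1 of 8 kept (replication factors), and zinc finger genes had 81 of each.

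The limits of the choice were checked at its edges. The kept peaks farthest from a gene end were at KRT10 (951 bp), PEX16 (928 bp), ZBTB43 (916 bp), PRSS27 (903 bp) and PHKA2 (880 bp). At PEX16, a peroxisome assembly gene, and at ZBTB43 the summit lay only 17 and 52 bp before the start given in the promoter table, which was inside the gene span. Just outside the limit were kept peaks at 1001 bp from OSER1, 1004 bp from PSMB10, 1004 bp from PFN1, 1010 bp from NXT2 and 1049 bp from AKTIP. Their folds ran from 2.90 to 6.39 in the knockout, 5.39 to 9.32 in the ROSA26 and 6.36 to 8.88 in the parental list, within the range of the members. The strongest missing single-gene peaks were at CACNG8, ZNF227 and CHCHD5, with parental folds of 12.9, 12.8 and 12.1, and 11 missing peaks reached the strongest bin beside 426 kept ones.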

How the data were processed

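GABPA ChIP-seq peak lists of 3 A-375 conditions were used. The authors used Bowtie2 for alignment, SAMtools and the MACS2 peak caller with hg38, per the submitters' processing notes. Their settings, versions, use of the input and handling of reads that map to several places, which bears on near-identical genes, were not given in the sources used here. A separate list was deposited per ChIP sample, and the inputs are not analysed here. The deposited lists give each peak's fold enrichment (a ratio), the −log10 of its p-value and q-value, and a score equal to 10 times the −log10 q-value with decimals dropped.

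Coordinates are hg38, written 1-based. Summit reads were found as the whole number that, times a scale fitted for each list, gives the pileup. The pileup had to give both the fold and the −log10 p under the Poisson model of MACS2. Every peak had a solution within 0.01. The scale was 0.924 in the knockout, 1 in the ROSA26 and 0.860 in the parental list. The local background was divided by the same scale. Genes and promoters came from RefSeq GRCh38.p14 tables, and 15811 of 19970 genes matched a promoter. Motifs were counted on both strands, each start position once, overlaps allowed. Shares have exact Clopper-Pearson 95% intervals and medians exact order-statistic intervals. Reads without molecular identifiers are not independent, so intervals cover counting error only. No test between conditions was made. Python 3.11.15, pandas 2.3.3, NumPy 2.4.6, SciPy 1.17.1 and matplotlib 3.10.9 were used, after the code was tested on simulated data.

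The members, the 37 families (all genes whose symbol fits a name pattern) and the motifs were chosen with earlier results of these data known. Named genes are the 5 strongest and weakest, the 5 with the largest places lower or higher in the knockout than in both controls, up to 4 per family and the 5 at the edges of the distance limit. A gene that this rule names is not reported here. Counts of ETS copies by peak order, far-end peaks and chromosomes were looked at after values were seen.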

Additional observations from a re-analysis of the deposited data

How the results depend on the processing

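The number of kept single-gene peaks stayed within 1.5 times of 988 under the 8 other settings tried, from 840 with lists of equal length to 1036 with gene ends within 500 bp. The share of single-gene peaks kept was 87.7% when each list was reduced to its strongest 1660 peaks by −log10 p. It was 60.3% with gene ends within 200 bp and 53.5% with a −log10 q of 10 or more in all lists. The share of kept promoters with an ETS motif depends on the motif, 63.8% with CCGGAAG and 38.8% with CCGGAAGT against 80.0% with CGGAAG, and was 87.3% with the summit inside the promoter window. A summit within 200 bp of the start was a narrower measure than the nearest end being the start, 84.7% against 98.9%. The median rank shift between knockout and parental list was 106 places by −log10 p against 130 by fold. Of 23 alternative values 15 stayed within the interval of the value reported or within 1.5 times of the count. No paired analysis was possible because each condition has 1 ChIP library. Summit reads were fewest in the knockout library, and a missing peak is not shown to be unbound.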

Other observations

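Kept peaks at the far end of a gene were few. The strongest of the 9 were at KRT10, with folds of 6.90 in the knockout, 22.6 in the ROSA26 and 16.0 in the parental list, and at RPL27A, with 9.55 in the knockout, 19.8 in the ROSA26 and 15.6 in the parental list. PDPK1 followed with folds of 13.98 in the knockout, 18.3 in the ROSA26 and 13.6 in the parental list, its summit 152 bp from the far end. HDGF had 8.66 in the knockout, 13.2 in the ROSA26 and 11.5 in the parental list. A long non-coding RNA gene had an end within 1 kb of the summit at 262 kept peaks (26.5%, 23.8 to 29.4) and at 23.8% of missing peaks (20.9 to 27.0).

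Chromosomes differed in the share of their genes with a kept peak. Chromosome 19 had 120 kept peaks, 8.27% of its genes (6.90 to 9.81), and chromosome 20 had 42, 7.82% of its genes (5.69 to 10.4), against 4.95% over all. The lowest shares were on chromosome 6, with 2.57% of its genes (1.70 to 3.72), and on X, with 2.59% (1.63 to 3.902). The share kept over all single-gene peaks was 56.6%. It was lowest on chromosome 13, with 10 kept and 19 missing single-gene peaks (34.5%, 17.9 to 54.3). Chromosome 6 came next, with 27 kept and 47 missing single-gene peaks (36.5%, 25.6 to 48.5). The highest share was on chromosome 22, with 25 kept and 11 missing single-gene peaks (69.4%, 51.9 to 83.7). These chromosomes were picked as extremes after values were seen, so their shares are a description. The share kept rose with parental fold, and the part of that in these shares was not tested.

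Kept peaks with at least 2 CGGAAG copies stood a median of 25.5 places lower in the knockout than in the mean of the controls (interval of the change -50.75 to -5.5, 365 peaks). Those with 0 or 1 copy stood a median of 26.5 places higher (5 to 48.5, 480 peaks). In 4 equal bins of control rank, from strongest to weakest, the medians were -30.25, -59.4, -42.25 and 64 places with at least 2 copies and 0.375, 38, -6.75 and 65.9 with 0 or 1, with overlapping intervals in each bin. The strongest bin held 122 peaks with at least 2 copies and 90 with 0 or 1, the weakest 53 and 158.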
